A study of Mus musculus with 12 samples.

Results

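The genes described here are 32 genes known to rise in activated, plaque-type microglia. They were chosen by name, and 31 of the 32 were found by Ensembl gene ID among the 43629 gene IDs of the count table. Of these 31, 29 passed the filter on low counts and were tested among 19145 genes. Ccl3 and Ccl4 did not pass it and are given as values, and Lilrb4a was not analysed here. Microglia are the resident macrophages of the brain, and in mouse models of amyloid deposition those that gather at plaques take on a state often called disease-associated microglia. Entry into its later stage is known to need TREM2, a lipid-sensing surface receptor that signals through the adaptor TYROBP. In that state genes of lipid handling, lysosomal digestion, phagocytosis and chemokine release go up, while genes of the homeostatic state go down.

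Poly(A) RNA of frozen forebrain from 3-month-old mice was sequenced in 12 libraries. The mice labelled collagen domain had received, as newborns, an injection into the cerebral ventricles of rAAV encoding a collagen domain construct. The series title ties that domain to C1qTNF3, which belongs to the secreted C1q and TNF related proteins. The mice labelled PBS had received saline. The groups were collagen domain females, collagen domain males, PBS females and PBS males, each with 3 libraries. The labels give no arm injected with an empty or reporter vector, so what the vector does and what its cargo does cannot be told apart. The strain, the serotype and the promoter are not given in the sources used here. The labels do not say that each library came from a separate mouse, so a p-value here reflects the variation among these 12 libraries, which may be technical.

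Libraries held 39272127 to 52323985 counted reads, and mitochondrially encoded genes took 7.37 to 9.86% of them, with 9.67% in PBS male 3. C1qtnf3 reads went against the treatment label in 4 libraries: there were 23 and 8 reads in the libraries labelled collagen domain female 1 and female 3, and 1071 and 2675 reads in those labelled PBS female 2 and PBS male 1. Reads of Xist and Ddx3y, genes read from the inactive X and from the Y chromosome, went against the sex label in 4, labelled collagen domain female 1 and male 3, PBS female 2 and, last, PBS male 1. In all, 5 of the 12 libraries went against a label, and every group or library name below is the label. PBS male 3, the library on which most of the values below turn, went against neither label. Marker genes of cerebellum and hindbrain, of which Calb2, Zic1 and Cbln1 are also expressed in forebrain, summed to 140 to 898 CPM (the usual unit of counts scaled to library size, here with TMM factors), and they are taken up again below. These are bulk samples, in which fewer cells of a type and less RNA per cell cannot be told apart.

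The level of these genes in the forebrain covered a wide range. Per kilobase of exon, the mean level over the 12 libraries was highest for Apoe, at 513 CPM per kilobase, followed by the ferritin heavy chain gene Fth1 at 372, the protease gene Ctsd at 132, Timp2 at 82.4 and Ctsb at 81.4. Several of these are also made by neurons, astrocytes or oligodendrocytes. Tyrobp stood at 22.3 CPM per kilobase and Trem2 at 2.58. The lowest levels were those of Clec7a at 0.211, Cybb at 0.174, Ccl4 at 0.17 and Itgax at 0.13 CPM per kilobase. Clec7a and Itgax, which are among the genes best known to be switched on at plaques, thus stood among the lowest.

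No activated microglia gene passed the test between the labelled treatments. With edgeR's quasi-likelihood test over both sexes, 0 of the 29 tested genes were called at an adjusted p under 0.05, where 0% of all 19145 genes were called. At an unadjusted p under 0.05 there was 1, Cst7, against 1.85% of all genes. In the filter over all 12 libraries, Cst7 passed only with PBS male 3 counted. It was also tested in the fit without that library, in which the PBS male group was smaller. The highest Cst7 counts outside PBS male 3 were 14 reads, in collagen domain male 2 and PBS female 3. DESeq2 and limma-voom also called 0, with 0 at an unadjusted p under 0.05 in each (1.77 and 1.82% of all genes), but DESeq2 gave no p for 3 genes, Cst7, Itgax and Ccl6. The log2 fold change was above 0 for 6 of the 29 genes and below 0 for 23, with a median of -0.08, against a median of 2e-04 and 49.9% below 0 over all genes tested. For none of the 29 did the 6 collagen domain libraries and the 6 PBS libraries lie apart, which 0.0679% of all genes did. The heat map shows that this lean towards PBS stood in 1 library, PBS male 3, where 22 of the 29 genes had their highest level of the 12 libraries, as did 17.3% of all genes tested.

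**Figure D1:**
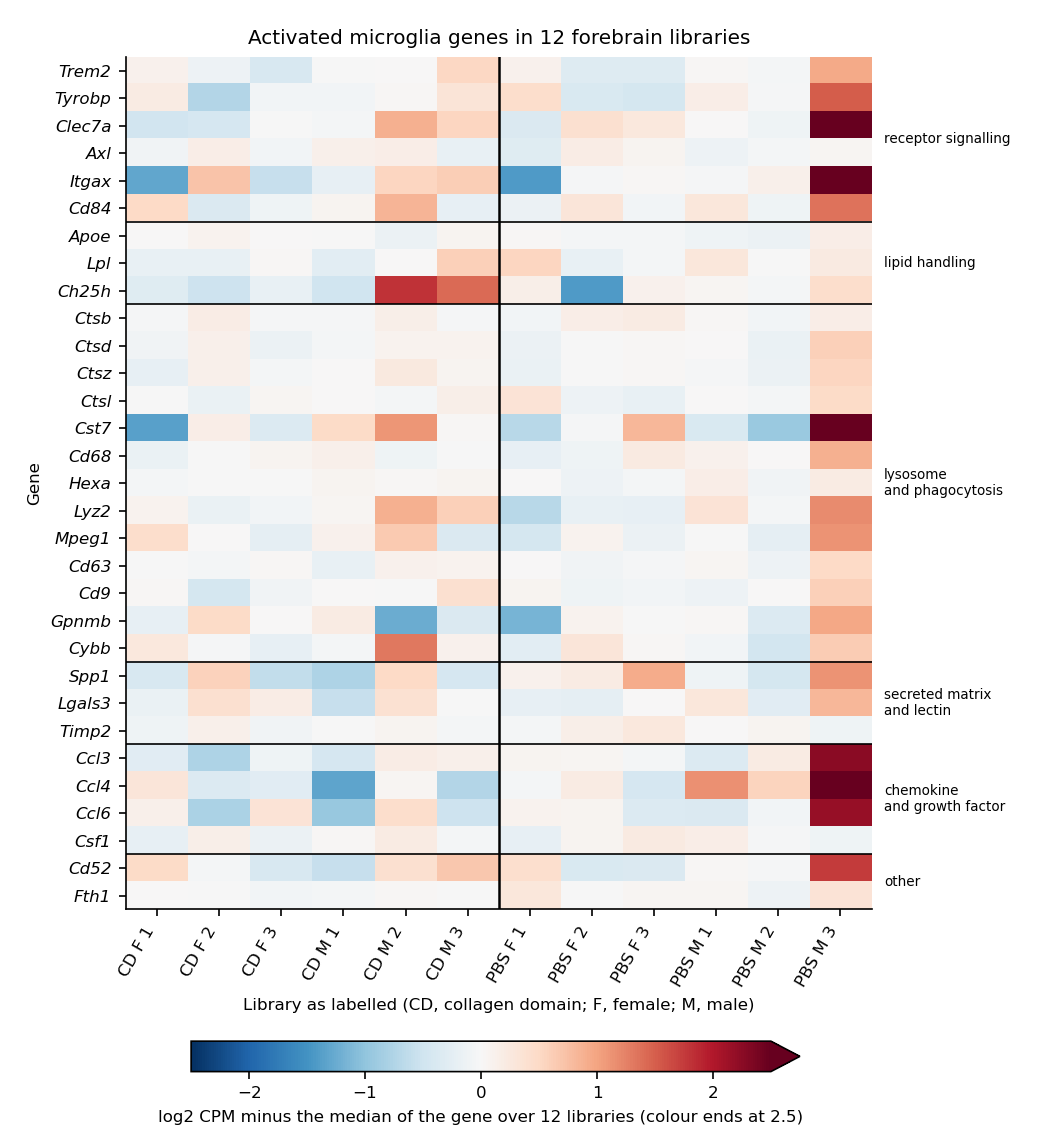
Level of the 31 activated microglia genes (rows, grouped by role) in the 12 libraries (columns, collagen domain left of PBS), as log2 CPM minus the median of the gene over the 12 libraries. PBS male 3 is red for most genes, while Ch25h and Cybb are highest in collagen domain male 2 and Timp2 is lowest in PBS male 3.

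Among the receptors and their partners, 5 of 6 tested genes were highest in PBS male 3. Clec7a encodes dectin-1, a receptor for glucans and a classical marker of plaque-associated microglia. It stood at 0.209, 0.216 and 0.303 CPM in the libraries labelled collagen domain female and at 0.295, 0.606 and 0.466 CPM in those labelled collagen domain male. In those labelled PBS female it stood at 0.23, 0.416 and 0.377 CPM, and in those labelled PBS male at 0.309, 0.282 and 2.98 CPM. The treatments overlapped, and PBS male 3 alone stood apart, at 4.92 times the next library. The log2 fold change of Clec7a between treatments was -0.99 (SE 0.562, unadjusted p = 0.105), and without PBS male 3 it was 0.02 (SE 0.302).

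Itgax encodes the integrin CD11c, a marker of activated microglia and of dendritic cells. It stood at 0.139, 0.691 and 0.256 CPM in collagen domain females and at 0.344, 0.606 and 0.643 CPM in collagen domain males. In PBS females it stood at 0.125, 0.396 and 0.415 CPM, and in PBS males at 0.398, 0.447 and 3.01 CPM. Apart from PBS male 3, all libraries lay within 0.125 to 0.691 CPM, and the lowest level of each treatment was that of a library labelled female 1. The log2 fold change was -0.60 (SE 0.603, unadjusted p = 0.341) with all libraries and 0.27 (SE 0.402) without PBS male 3. Reads of Itgax could in part come from its paralog Itgad, since 6.04% of the 75-base words of the longest Itgax transcript were also in Itgad transcripts. Itgad held 22 reads in PBS male 3 and 7 to 30 reads over the 12 libraries, while Itgax held 115 reads in PBS male 3 and at most 32 elsewhere.

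For Trem2 itself PBS male 3 lay closer to the other libraries. Trem2 stood at 12.8, 11 and 9.06 CPM in collagen domain females and at 11.9, 12 and 17.2 CPM in collagen domain males. It stood at 12.9, 9.56 and 9.59 CPM in PBS females and at 12.2, 11.5 and 23.2 CPM in PBS males. PBS male 3 was thus 1.95 times the median of the other 11 libraries and 1.35 times the next, collagen domain male 3. Tyrobp, the adaptor gene, stood at 15, 7.82 and 12.5 CPM in collagen domain females and at 12.4, 13.3 and 16.1 CPM in collagen domain males. It stood at 17.6, 9.97 and 9.59 CPM in PBS females and at 14.5, 12.7 and 37.3 CPM in PBS males. The treatments overlapped again, and PBS male 3 was 2.94 times the median of the other 11. Tyrobp had a log2 fold change between treatments of -0.35 (SE 0.286) with all libraries and -0.03 (SE 0.197) without PBS male 3. Cd84, a receptor of the SLAM family, was at 6.15 CPM in PBS male 3 and at 1.84 to 4.31 CPM in the others. The exception was Axl, a receptor tyrosine kinase that binds dying cells through Gas6. It spanned 37.7 to 48.5 CPM in collagen domain libraries and 35.0 to 48.9 CPM in PBS libraries, and PBS male 3 held rank 6 of 12.

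Of the 3 lipid genes 1, Apoe, was highest in PBS male 3. Apoe, the apolipoprotein of brain lipid particles, which in mouse brain comes mostly from astrocytes, averaged 1106 ± 60.7 CPM in collagen domain libraries and 1086 ± 89.6 CPM in PBS libraries (SD, n = 6 libraries each). In PBS male 3 it was at 1242 CPM, 1.13 times the median of the other 11. Lpl, lipoprotein lipase, spanned 24.0 to 43.4 CPM in collagen domain libraries and 25.3 to 41.7 CPM in PBS libraries, with collagen domain male 3 highest. Ch25h, which makes the oxysterol 25-hydroxycholesterol, stood at 0.232, 0.194 and 0.256 CPM in collagen domain females and at 0.197, 1.14 and 0.865 CPM in collagen domain males. It stood at 0.334, 0.0833 and 0.321 CPM in PBS females and at 0.309, 0.282 and 0.419 CPM in PBS males. Its high libraries were thus collagen domain male 2 and male 3, with 49 and 39 reads, and the other 10 held 4 to 17 reads. Ch25h had the largest positive log2 fold change of the 29 genes, 0.58 (SE 0.436, unadjusted p = 0.209), and it was 0.58 (SE 0.496) without PBS male 3 too.

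Of the 13 genes of lysosome and phagocytosis, 11 were highest in PBS male 3, and Cst7 stood furthest apart. Cst7 encodes cystatin F, an inhibitor of lysosomal cysteine proteases that plaque-type microglia are known to express strongly. It stood at 0.0232, 0.151 and 0.0931 CPM in collagen domain females and at 0.197, 0.326 and 0.133 CPM in collagen domain males. It stood at 0.0626, 0.125 and 0.264 CPM in PBS females and at 0.0884, 0.0471 and 7.82 CPM in PBS males. PBS male 3 held 299 reads of Cst7 and every other library 1 to 14, which made it 24 times the next library and 62.6 times the median of the other 11. Cst7 had a log2 fold change between treatments of -2.70 (SE 1.23, unadjusted p = 0.0497, adjusted p = 0.9999), and without PBS male 3 it was 0.27 (SE 0.587).

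For the cathepsin genes and Hexa PBS male 3 lay closer to the other libraries. Ctsd, cathepsin D, was at 456 CPM in PBS male 3 and at 270 to 328 CPM in the others. A share of 35.8% of the 75-base words of its longest transcript was also in transcripts of Gm49369, a gene whose ID is not among those of the table, so the Ctsd level is uncertain. Ctsz was at 37.4 CPM in PBS male 3 against 22.5 to 30.5 CPM elsewhere, and Ctsl at 138 CPM against 87.7 to 126 CPM. Ctsb, cathepsin B, did not follow them: it spanned 462 to 537 CPM in collagen domain libraries and 452 to 545 CPM in PBS libraries, with PBS male 3 at rank 4. Hexa, a subunit of beta-hexosaminidase, was at 47.9 CPM in PBS male 3 and at 38.2 to 46.9 CPM in the others, barely above the next library.

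For several genes of phagocytes PBS male 3 lay further from the others. Cd68, a lysosomal membrane protein of macrophages, was at 9.78 CPM in PBS male 3 and at 4.55 to 6.13 CPM in the other 11. Mpeg1, a pore-forming protein of phagocytes, was at 49.1 CPM there and at 16.7 to 35.4 CPM elsewhere, with collagen domain male 2 next. Lyz2, macrophage lysozyme, stood at 11.8, 9.83 and 10.5 CPM in collagen domain females and at 11.3, 20.5 and 16.7 CPM in collagen domain males. It stood at 6.76, 9.74 and 9.51 CPM in PBS females and at 14, 10.7 and 25 CPM in PBS males. All 4 libraries above 12 CPM were thus labelled male, and 2 of them, the libraries labelled collagen domain male 3 and PBS male 1, went against that label. A share of 5.96% of the 75-base words of Lyz2 was also in Lyz1, which held 0 to 4 reads. Gpnmb, a glycoprotein of phagocytes that hold much lipid, was at 4.26 CPM in PBS male 3 and at 0.885 to 3.02 CPM elsewhere. Cybb, the catalytic subunit of the phagocyte NADPH oxidase, was highest in collagen domain male 2, at 2.24 CPM, with PBS male 3 next at 1.36 CPM and the other 10 at 0.612 to 1.08 CPM. The tetraspanin genes Cd63 and Cd9, which other brain cells also express, were at 71.1 and 57.7 CPM in PBS male 3 against at most 53.9 and 50.2 CPM elsewhere.

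The secreted matrix and lectin genes were mixed. Spp1, osteopontin, spanned 12.8 to 32.4 CPM in collagen domain libraries, with a median of 16.4 CPM, and 16.2 to 47.6 CPM in PBS libraries, with a median of 24.3 CPM. PBS male 3 was highest and the library labelled PBS female 3 next, at 41.5 CPM. A share of 7.47% of the 75-base words of Spp1 was also in Gm42793. The log2 fold change of Spp1 was -0.50 (SE 0.326) with all libraries and -0.23 (SE 0.299) without PBS male 3. Lgals3, galectin-3, was at 2.01 CPM in PBS male 3 and at 0.737 to 1.49 CPM elsewhere. Timp2, an inhibitor of matrix metalloproteases, ran the other way: PBS male 3 held the lowest level of the 12 libraries, 291 CPM, against 293 to 378 CPM.

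The chemokine genes, all on chromosome 11, were high in PBS male 3 too. Ccl6 stood at 1.34, 0.691 and 1.58 CPM in collagen domain females and at 0.614, 1.68 and 0.843 CPM in collagen domain males. It stood at 1.32, 1.29 and 0.962 CPM in PBS females and at 0.95, 1.18 and 5.76 CPM in PBS males. PBS male 3 was thus 3.43 times the next library, collagen domain male 2. The log2 fold change of Ccl6 was -0.66 (SE 0.483) with all libraries and 0.00 (SE 0.275) without PBS male 3. Ccl3, the gene of MIP-1 alpha, held 39 reads in PBS male 3 and 4 to 9 in each of the others. Ccl4, the gene of MIP-1 beta, held 22 reads there and 0 to 9 elsewhere. The 0 was in collagen domain male 1, where a count of 0 allows a level of up to 0.0737 CPM (3 reads, counting error only). Csf1, the growth factor that keeps microglia alive, held rank 9 in PBS male 3, at 17.1 CPM against 15.9 to 21.6 CPM elsewhere. Cd52, a glycoprotein of white blood cells, was at 4.6 CPM in PBS male 3 and at 0.884 to 2.17 CPM elsewhere. Fth1, the iron store, was at 1578 CPM in PBS male 3, with the library labelled PBS female 1 next at 1520 CPM.

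**Figure D2:**
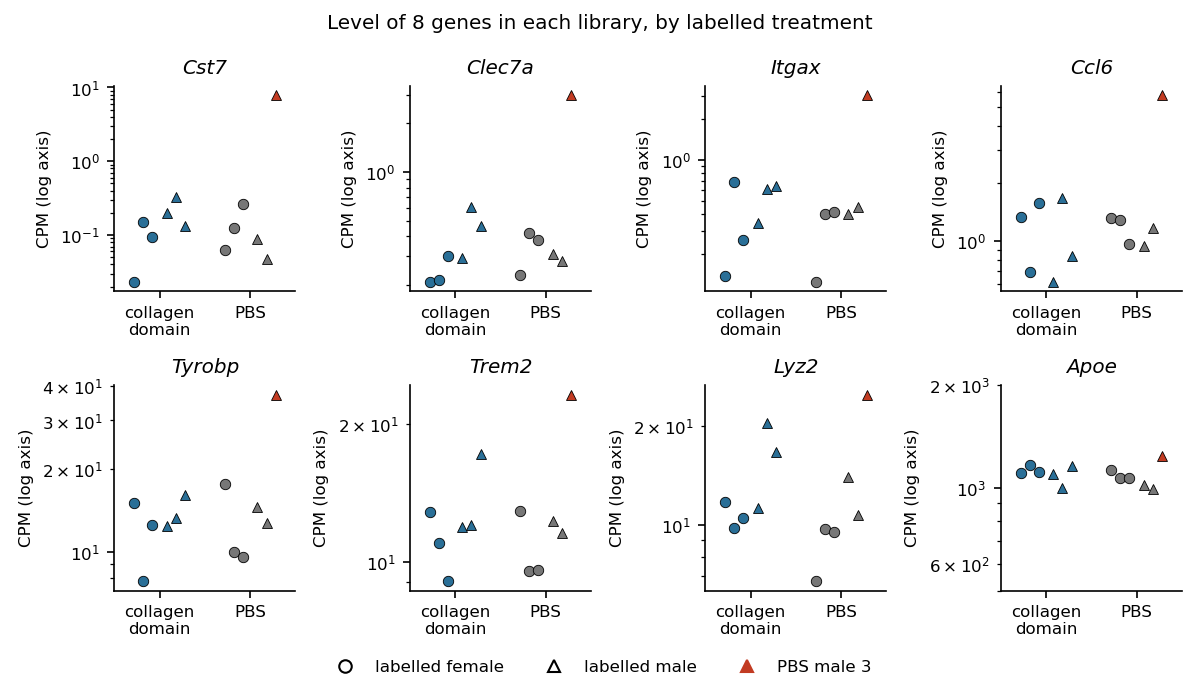
Level in CPM (log axis) of 8 genes in each of the 12 libraries, collagen domain left and PBS right, with circles for libraries labelled female and triangles for those labelled male. PBS male 3 (red) lies at 7.82 CPM for Cst7 and 2.98 CPM for Clec7a, far above the other 11 libraries, and at 1242 CPM for Apoe, close to them.

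The level of the set in PBS male 3 was then read against that of all genes. This library held the highest level of the 12 libraries for 75.9% of the 29 tested activated microglia genes, against 17.3% of all 19145 genes. It was at least 1.5 times the median of the other 11 libraries for 17 of the 29, against 8.24% of all genes. It was at least 2 times that median for 10 of the 29, against 2.48%. It was over 1.5 times the highest of the other 11 for 7 of the 29, against 0.355%. These 7 were Cst7, Clec7a, Itgax, Ccl6, Tyrobp, Cd52 and Cd68. The median of the 29 genes in PBS male 3, as log2 CPM minus the median of each gene over the libraries, was 0.63, and in the other 11 libraries it lay between -0.07 and 0.17. These shares describe 1 library, and no test of that library against the rest was made.

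The 16798 tested genes with at least 20 reads in PBS male 3 were also ranked by how far that library exceeded the highest of the other 11 on the log2 CPM scale. The minimum of 20 reads was set in PBS male 3 itself, so genes high there entered the ranking more easily. Over the 12 libraries Cst7 also passed the filter on low counts only through this library, so its rank is not free of that choice. The set held 6 of the first 10 genes. Cst7 had rank 1 with an excess of 4.41, Clec7a rank 3 with 2.22, Itgax rank 4 with 2.05, Ccl6 rank 5 with 1.75, Tyrobp rank 8 with 1.08 and Cd52 rank 9 with 1.07. The genes outside the set that came next to them included A530053G22Rik with an excess of 2.34, Ly9, a SLAM-family receptor, with 1.16, and the pseudogene Rps26-ps1 with 1.12. Calca, which encodes calcitonin and CGRP, had an excess of 1.03, Tssk5 of 0.95, Gm9025 of 0.92, Gm14513 of 0.89 and Birc7 of 0.86. The chemokine gene Ccl9 and Cd300c2, a receptor gene of myeloid cells, both had an excess of 0.86. App, the gene of the amyloid precursor protein, was at 2517 CPM in PBS male 3, against 1274 to 1512 CPM in the other 11 libraries. The part of App in the level of these genes was not tested. The labels do not give the mouse line of any library, so whether PBS male 3 came from the same line as the other 11 is not known from the sources used here, and this bears on every value of that library and of the PBS group.

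**Figure D3:**
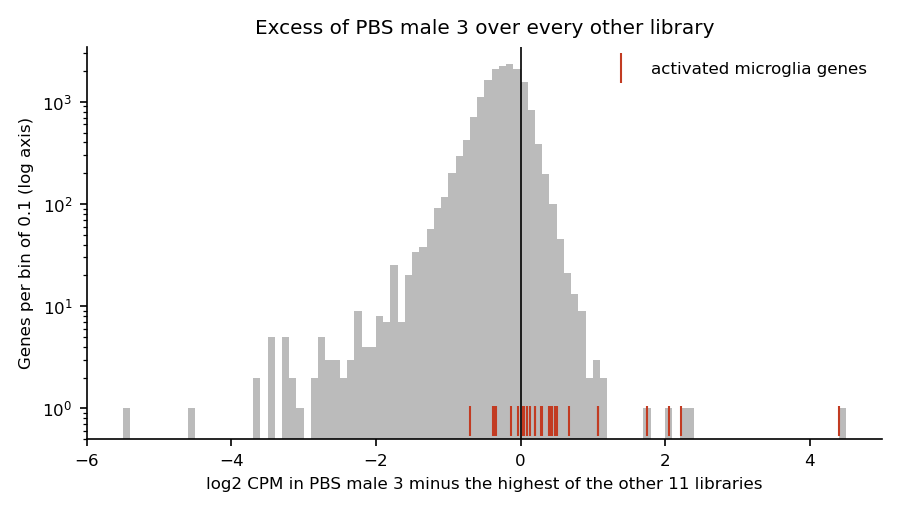
Number of genes (log axis) by the excess of PBS male 3, that is log2 CPM in PBS male 3 minus the highest of the other 11 libraries, over 16798 genes with at least 20 reads in PBS male 3. Red lines mark the activated microglia genes among them, of which Cst7 lies furthest right at 4.41.

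The promoters of 26 of the 31 genes were in the RefSeq table of windows from 250 bases before to 50 after the start site (build GRCm38.p6), and 4 are shown. Cst7, Itgax and Clec7a are the tested genes of the set furthest above the next library in PBS male 3, and Trem2 is the receptor of the state. Capitals mark matches, on either strand, to GGAAGT, bound by PU.1 and other ETS factors, TGACTCA, bound by AP-1, TATAAA, the TATA box, and CACGTG, an E-box. The windows are chr2:150570165-150570464 on the plus strand for Cst7, chr7:128129300-128129599 on the plus strand for Itgax, chr6:129472730-129473029 on the minus strand for Clec7a and chr17:48346151-48346450 on the plus strand for Trem2. Each is written 5′ to 3′ along the gene.
Cst7 promoter: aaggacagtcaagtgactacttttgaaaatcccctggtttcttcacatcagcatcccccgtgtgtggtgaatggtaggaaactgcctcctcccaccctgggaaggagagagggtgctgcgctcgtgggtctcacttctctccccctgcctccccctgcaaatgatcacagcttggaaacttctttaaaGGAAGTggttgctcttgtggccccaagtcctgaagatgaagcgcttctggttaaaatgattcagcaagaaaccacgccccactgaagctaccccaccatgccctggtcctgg
Itgax promoter: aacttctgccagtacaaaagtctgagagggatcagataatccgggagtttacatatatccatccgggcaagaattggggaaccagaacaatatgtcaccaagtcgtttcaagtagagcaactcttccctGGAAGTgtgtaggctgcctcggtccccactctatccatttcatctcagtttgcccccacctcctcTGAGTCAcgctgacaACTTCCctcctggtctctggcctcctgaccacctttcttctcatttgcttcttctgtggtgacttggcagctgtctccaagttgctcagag
Clec7a promoter: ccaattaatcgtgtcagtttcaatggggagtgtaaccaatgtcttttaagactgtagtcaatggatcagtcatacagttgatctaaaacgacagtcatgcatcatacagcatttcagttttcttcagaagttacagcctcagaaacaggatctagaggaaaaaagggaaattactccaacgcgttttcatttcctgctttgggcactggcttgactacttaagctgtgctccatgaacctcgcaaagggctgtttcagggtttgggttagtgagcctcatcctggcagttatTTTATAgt
Trem2 promoter: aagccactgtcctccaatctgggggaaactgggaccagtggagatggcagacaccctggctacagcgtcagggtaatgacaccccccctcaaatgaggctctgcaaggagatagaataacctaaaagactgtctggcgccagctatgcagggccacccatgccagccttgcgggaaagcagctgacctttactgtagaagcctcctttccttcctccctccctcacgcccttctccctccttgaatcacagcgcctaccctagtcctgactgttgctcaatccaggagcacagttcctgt

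The Cst7 window held GGAAGT at position -62 from the start site, and the Itgax window held it at -121 and, on the opposite strand, at -41, with TGACTCA on the opposite strand at -56. The Clec7a window shown held TATAAA on the opposite strand at 42 after the start site. A second Clec7a window, chr6:129472736-129473035, held none of the 4 motifs, and neither did the Trem2 window. The 26 genes had 31 windows, of which 8 held GGAAGT, as did 23.8% of 32851 windows of the same length over all genes. TGACTCA was in 4 of the 31 and in 5.2% of all windows, TATAAA in 5 of the 31 and 13.6%, and CACGTG in 2 of the 31 and 7.15%. These motifs are short, and a match describes the letters and not a bound site.

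With PBS male 3 left out, the lean of the set towards PBS was gone. In the remaining 11 libraries the log2 fold change between treatments was above 0 for 20 of the 29 genes and below 0 for 9, with a median of 0.06. Still 0 of the 29 were called with edgeR, where 0% of 19411 genes were called, and 1 had an unadjusted p under 0.05, against 1.71% of all genes. That gene was Lyz2, at 0.34 (SE 0.154, unadjusted p = 0.0478). Cst7, Clec7a, Ccl6 and Itgax, the 4 genes with the most negative fold changes over 12 libraries, differed most between these fits, as the plot of fold changes with and without this library shows.

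**Figure D4:**
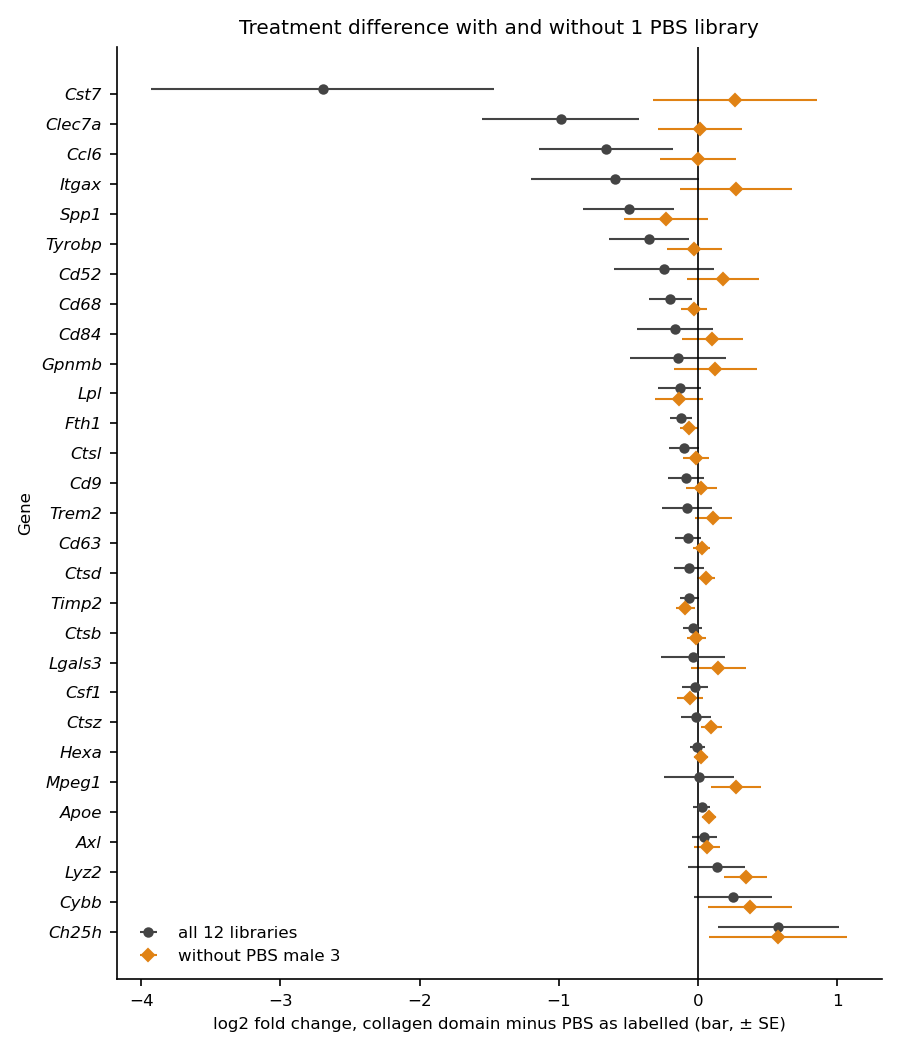
Log2 fold change of the 29 tested genes, collagen domain minus PBS as labelled, with bars of ± 1 SE, over all 12 libraries (grey circles) and without PBS male 3 (orange diamonds). Cst7 lies at -2.70 with all libraries and at 0.27 without PBS male 3, and Ch25h at 0.58 in both.

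The treatments were also compared within each labelled sex, and the difference between the sexes was tested as an interaction. In females 15 of the 29 genes lay above 0 and 14 below, with a median log2 fold change of 0.01. With edgeR 0 of the 29 were called in females (0% of all genes) and 0 had an unadjusted p under 0.05 (1.46% of all genes), and DESeq2 and limma-voom called 0 as well, with 0 at an unadjusted p under 0.05 in each (1.41 and 1.53% of all genes). PBS male 3 is in neither female group. The fit of the 4 groups shares 1 estimate of the spread, though, so that library entered the SE and p here. The SE of Clec7a in females was 0.856 with PBS male 3 and 0.347 without it. Without PBS male 3 edgeR called 0 in females (0% of all genes), with 0 at an unadjusted p under 0.05 (1.84% of all genes). In males 6 lay above 0 and 23 below, with a median of -0.14. With edgeR 0 were called in males (0% of all genes) and 1, Cst7 at -3.58 (SE 1.45), had an unadjusted p under 0.05 (1.7% of all genes). In males DESeq2 called 0 (0.0157% of all genes) and limma-voom 0 (0%), with 1 and 0 at an unadjusted p under 0.05 (1.49 and 1.66% of all genes). Without PBS male 3 the males had 23 genes above 0 and 6 below, with a median of 0.12. Cst7 then stood at 1.64 (SE 0.791), with 0 genes called (0% of all genes) and 0 at an unadjusted p under 0.05 (1.43% of all genes). The PBS male group of that fit held only PBS male 1 and PBS male 2, with 4 and 2 reads of Cst7. PBS male 1 went against both its treatment and its sex label. The interaction, the male minus the female difference, had 0 of the 29 called (0% of all genes) and 0 at an unadjusted p under 0.05 (1.37% of all genes), with a median of -0.15. For the interaction DESeq2 called 0 (0.00522% of all genes) and limma-voom 0 (0%), with 0 at an unadjusted p under 0.05 in each (1.28 and 1.52% of all genes), so no difference between the sexes in the treatment comparison was shown. Without PBS male 3 the interaction had a median of 0.12, with 24 genes above 0 and 5 below, 0 called (0% of all genes) and 1 at an unadjusted p under 0.05 (1.65% of all genes), which was Cst7 at 2.38 (SE 1.04). That value rests on the same low Cst7 counts in the PBS male libraries left.

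Between the labelled sexes no gene of the set passed the test. The log2 fold change, male minus female, was above 0 for 24 of the 29 genes and below 0 for 5, with a median of 0.17. With edgeR 0 were called (0% of all genes), and 5 had an unadjusted p under 0.05, against 1.97% of all genes. These were Cst7 at 3.15 (SE 1.24), Clec7a at 1.39 (SE 0.564), Ch25h at 1.09 (SE 0.437), Lyz2 at 0.76 (SE 0.206, unadjusted p = 0.00292) and Trem2 at 0.43 (SE 0.183). Between the sexes DESeq2 called 0 (0.0418% of all genes) and limma-voom 0 (0%), with 5 and 3 at an unadjusted p under 0.05 (1.92 and 1.96% of all genes). Without PBS male 3 the counts were 20 above and 9 below with a median of 0.06, 0 called (0.0258% of all genes) and 2 at an unadjusted p under 0.05 (2.13% of all genes), which were Lyz2 at 0.56 (SE 0.153, unadjusted p = 0.00364) and Ch25h at 1.09 (SE 0.485). Since 4 of the 12 libraries went against the sex label, these values compare labels and not the sexes that the reads show.

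Among the other 11 libraries, collagen domain male 2 stood next. It held their highest level for 10 of the 29 genes, against 12.1% of all genes. These were Cst7, Clec7a, Ccl6, Cd84, Lyz2, Mpeg1, Ctsz, Cd63, Cybb and Ch25h. The same library was highest in neutrophil genes, whose 8 markers summed to 28.9 CPM there, against 6.23 CPM in PBS male 3 and 0.745 CPM in the lowest library. S100a9, a calcium-binding protein of neutrophils, was at 10.8 CPM in collagen domain male 2, and Lcn2, which reactive astrocytes and neutrophils both express, at 6.17 CPM, against at most 2.12 and 0.314 CPM in PBS libraries. The part of these cells in the level of the activated microglia genes was not tested.

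Other markers of microglia and of neighbouring cells were read to place the set. Homeostatic microglia genes, 16 of 16 tested, summed to 361 to 448 CPM in collagen domain libraries and 390 to 472 CPM in PBS libraries, with PBS male 3 highest. In PBS male 3 their median lay 0.20 above the median of the libraries, just past the other 11, which spanned -0.21 to 0.19. The defining genes P2ry12 and Tmem119 held ranks 4 and 3 there, at 44.3 and 20.7 CPM. Of the 16 genes, 4 were highest there, against 17.3% of all genes. Sall1, a transcription factor of microglial identity, was lowest there, at 25.8 CPM against 29.7 to 38.7 CPM. Between treatments 0 of the 16 were called with edgeR and 0 had an unadjusted p under 0.05, with 3 above 0 and 13 below and a median log2 fold change of -0.05. The 4 of smallest p were Mertk at -0.11 (SE 0.0535), P2ry12 at -0.09 (SE 0.0608), Slc2a5 at -0.20 (SE 0.197) and Sall1 at 0.09 (SE 0.0899).

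A wider list of 38 further genes raised in activated microglia lay closer to the other libraries in PBS male 3 than the set did. Of its 35 tested genes, 10 were highest there, where 17.3% of all genes were. Their median lay 0.08 above that of the libraries, and the other 11 libraries spanned -0.04 to 0.07. Of the 20 further lysosomal genes, 9 were highest there and the median was 0.13, where the other 11 spanned -0.09 to 0.11. The medians of the wider and the lysosomal list in PBS male 3 were thus a little above those of all other libraries. Of the 17 tested genes of TREM2 signalling and lipid sensing, 5 were highest there and the median was 0.04, within the -0.16 to 0.14 of the other 11. Between treatments 0 genes of these 3 lists were called with edgeR and 0 had an unadjusted p under 0.05. Above 0 lay 16 of 35, 10 of 20 and 13 of 17, with medians of -0.01, 0.00 and 0.04. The gene of smallest p in the wider list was Glipr1 at -0.40 (SE 0.207), among lysosomal genes Grn, progranulin, at -0.09 (SE 0.0671), and among TREM2 signalling genes Vav1, a signalling protein of blood cells, at 0.12 (SE 0.085).

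Markers of other phagocytes and of astrocytes were read in the same way. Border macrophage genes summed to 21.7 CPM in PBS male 3 and to 18.4 to 26.0 CPM in the others. Monocyte genes summed to 28.1 CPM against 20.6 to 30.2 CPM, but Vcan alone gave 21.3 CPM of the sum in PBS male 3. The medians of both lists there, 0.04 and 0.05, lay within the -0.18 to 0.29 and -0.30 to 1.62 of the other 11. Of the 10 border macrophage genes tested, 1 was highest there, Folr2, at 1.31 CPM against 0.389 to 0.874 CPM. Of the 5 monocyte genes tested, 1 was highest there, Ly6c2, at 5.39 CPM against 1.25 to 4.11 CPM. Of the lymphocyte markers Cd3d and Cd8a were at 0 in PBS male 3, and Cd3e was at most 0.0625 CPM in any library. Trac was highest there, at 0.785 CPM against 0.141 to 0.777 CPM, and Cd4, which microglia also express, was at 6.51 CPM against 5.45 to 9.50 CPM. Reactive astrocyte genes summed to 591 CPM in PBS male 3 and to 223 to 376 CPM in the others, which was mostly Gfap, at 449 CPM against 142 to 248 CPM. The median of the list lay 0.49 above that of the libraries in PBS male 3, where the other 11 spanned -0.28 to 0.36. Of its 10 genes, 4 were highest in PBS male 3, against 17.3% of all genes. The general astrocyte genes summed to 3273 CPM there, within the 2932 to 3833 CPM of the others, and Slc1a2 alone gave 1483 CPM of that sum. Their median there, 0.14, lay within the -0.08 to 0.24 of the other 11. Of these 10 genes too, 4 were highest in PBS male 3, namely Aqp4, Gja1, Sox9 and Gjb6. The part of these cells in the level of the activated microglia genes was not tested.

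Between treatments 0 genes of these other lists were called with edgeR. At an unadjusted p under 0.05 there were 2 of 10 border macrophage genes, Pf4 at -0.76 (SE 0.206) and Folr2 at -0.53 (SE 0.222), and 2 of 5 monocyte genes, Ly6c2 at -0.88 (SE 0.261) and Ccr2 at 0.99 (SE 0.379). There was 1 of 10 reactive astrocyte genes, Lcn2 at 2.28 (SE 0.981), and 1 of 10 oligodendrocyte genes, Opalin at 0.23 (SE 0.089). There were 0 of 5 neutrophil, 0 of 10 astrocyte, 0 of 3 lymphocyte and 0 of 14 cerebellum and hindbrain genes. In the list of chemokines and the CSF1 axis the only such gene of 9 was Ccr2, and Ccl9 stood at -0.48 (SE 0.39). Over all genes tested the share at an unadjusted p under 0.05 was 1.85%.

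**Figure D5:**
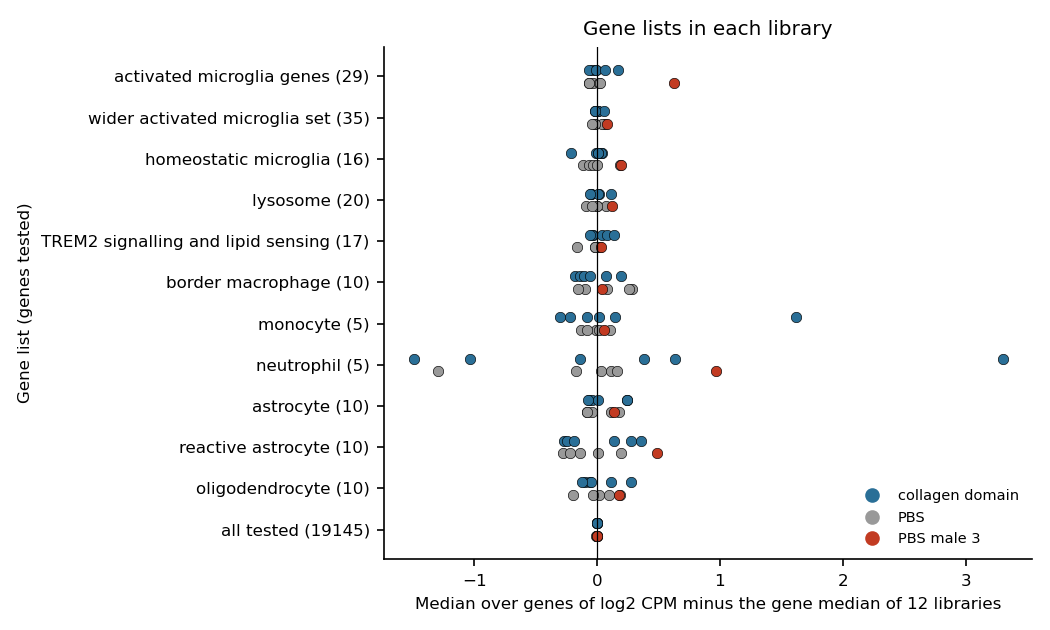
Median over the genes of each list of log2 CPM minus the gene's median over 12 libraries (x axis), with 1 point per library, collagen domain (blue) above PBS (grey), and PBS male 3 in red. PBS male 3 lies at 0.63 for the activated microglia genes, at 0.20 for homeostatic microglia, at 0.08 for the wider list and at 0.04 for border macrophages.

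Cerebellum and hindbrain markers were then set beside the activated microglia genes. Their mean lay above that of all 12 libraries in collagen domain female 2 and male 2 and in the libraries labelled PBS female 2, PBS female 3, PBS male 1 and PBS male 3, by 0.03 in PBS male 1 and by 2.19 to 3.02 on the log2 scale in the others. Of the 29 tested genes 1 was apart between the 6 libraries above and the 6 below, against 3.21% of all genes. That was Ctsb, at 482 to 545 CPM in the libraries above and 452 to 465 CPM in those below. Spp1, which brainstem neurons also express, stood at 20.3 to 47.6 CPM in the libraries above and 12.8 to 23.5 CPM in those below. The 20.3 CPM was that of PBS male 1, whose markers summed to 169 CPM, against 140 to 184 CPM in the libraries below. The other libraries above held 25.0 to 47.6 CPM of Spp1, so its overlap came from PBS male 1 alone. How many of all genes overlapped only through that library was not counted. Cst7, Clec7a and Itgax overlapped between the libraries above and below, and the part of the tissue in the level of PBS male 3 was not tested. With the marker mean as a covariate the median log2 fold change between treatments was -0.03, with 13 genes above 0 and 16 below and 0 called.

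The fits were repeated without libraries that their reads set against their labels, each time with and without PBS male 3. Without the 5 against either label, the 29 genes had a median log2 fold change of -0.17 with 6 above 0 and 23 below. With edgeR 0 of the 31 genes tested there were called (0.0102% of all genes) and 3 had an unadjusted p under 0.05 (5.79%). Without those 5 and PBS male 3, the median was 0.11 with 20 above and 9 below, 0 were called (0.0051% of all genes) and 0 had an unadjusted p under 0.05 (3.01%). Without the 4 against the treatment label it was -0.15, with 9 above and 20 below, 0 of 31 called (0.0101% of all genes) and 5 at an unadjusted p under 0.05 (3.35%). With PBS male 3 also left out it was 0.11, with 21 above and 8 below, 0 called (0.0101% of all genes) and 0 at an unadjusted p under 0.05 (2.36%); this last setting was chosen after seeing the data. In the 7 libraries that went against no label, Tyrobp stood at -0.92 and Ccl6 at -1.29, both at an adjusted p of 0.681. In the same libraries without PBS male 3, Cst7 stood at 0.86 and Itgax at 0.72, at adjusted p of 0.814 and 0.809.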

How the data were processed

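The table deposited by the authors holds raw read counts per Ensembl gene ID, and its columns total 39272127 to 52323985 reads per library. Per the labels' protocols, poly(A) RNA from forebrain was made into libraries with a kit that does not keep strand and was read as 75-base pairs. STAR, DESeq2 and the build GRCm39 are named in the submitters' processing notes without a role; the counting tool, its strand setting and versions are not given in the sources used here. Reads on opposite strands could thus not be told apart. IDs without a symbol (1167 of 43629) took 0.144% of reads.

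The activated microglia genes, the companion lists and the tests were chosen with earlier results of these data known. Counts were tested with edgeR 4.0.16 in R 4.3.3 (TMM, filterByExpr over the 4 groups, robust quasi-likelihood F-test on sex and treatment, or on the 4 groups for effects within a sex and the interaction). SE is the log2 fold change divided by the root of F. Benjamini-Hochberg adjustment ran over all 19145 genes, with a threshold of 0.05, and the script was tested on simulated data. DESeq2 1.42.0, limma-voom (limma 3.58.1), other size factors, other filters, a replicate block, covariates and left-out libraries were alternatives. Levels are CPM on TMM-scaled library sizes, and log2 CPM uses a prior count of 2. Levels per kilobase use the merged exon length in a GENCODE annotation of GRCm38, and RefSeq promoter windows are of GRCm38.p6, so neither is of the build of the counts. Intervals and floors cover counting error only, since no molecular identifiers were used.

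The genes named are all 32 listed, up to 4 of smallest p from each companion list, the 10 genes outside the set with the largest excess in the library that was highest for most of the set, the genes of the label check and App. P2ry12, Tmem119, Gfap, the lymphocyte markers, Calb2, Zic1, Cbln1, Lyz1, Itgad, Gm49369 and Gm42793 were named for the checks they serve, after their values were seen. Same-group libraries differed by more than sampling noise (chi-square per degree of freedom 11.9 to 102 over 12 pairs), so none was counted as a repeat.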

Additional observations from a re-analysis of the deposited data

Results flagged for a closer look

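Each of the 31 genes was looked at in the 6 collagen domain and in the 6 PBS libraries for a library whose gap to the next, as a share of the range, passed Dixon's critical value at 95%. The nominal rate of about 1 in 20 holds for independent groups, and these genes share libraries and were chosen with earlier results known. The rule was thus a flag and not a test, and 19 of 62 groups had such a library. In 16 it was PBS male 3, the highest PBS library in each. Among receptors and partners its levels were 23.15 CPM for Trem2, 37.26 for Tyrobp, 2.983 for Clec7a, 3.009 for Itgax and 6.148 for Cd84. Among lysosomal and phagocyte genes they were 455.5 CPM for Ctsd, 37.44 for Ctsz, 7.823 for Cst7, 9.785 for Cd68, 49.11 for Mpeg1, 71.11 for Cd63 and 57.71 for Cd9. For the chemokine genes they were 1.02 CPM for Ccl3, 0.5756 for Ccl4 and 5.756 for Ccl6, and for Cd52 the level was 4.605 CPM.

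In the collagen domain libraries there were 3. Apoe was lowest in collagen domain male 2, at 996.6 CPM with the next library at 1101 CPM. Lpl was highest in the library labelled collagen domain male 3, at 43.41 CPM with the next at 29.32 CPM. Cybb was highest in collagen domain male 2, at 2.237 CPM with the next at 1.043 CPM. These genes share libraries, so the 19 are not independent of each other.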

How the results depend on the processing

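None of the alternatives run gave a called gene of the set in any comparison, which held for DESeq2, limma-voom, other size factors, both other filters, an adjusted p of 0.1, the covariates and every left-out library. In the fits whose shares are given above, 0 to 0.0418% of all genes were called. The 0 is thus near the share over all genes and is no result about this set. For the other alternatives that share is not given here. Only 31, 29 or 24 of the genes could be tested, depending on the filter. The median log2 fold change between treatments, -0.08, was -0.08 with DESeq2, -0.06 with limma-voom, -0.07 with a filter of 1 CPM in 6 libraries, -0.06 with the homeostatic microglia covariate and -0.03 with the cerebellum and hindbrain covariate. Leaving out 1 library at a time gave -0.13 (without PBS male 2) to 0.06 (without PBS male 3), and 0 to 0 genes called in each comparison. Of these 12 the median had the opposite sign only without PBS male 3. Of 720 values of single genes over 25 settings, 646 lay within the SE of the reported value and 74 did not, among them 13 without PBS male 3 and Cst7 at -0.66 with limma-voom. With the replicate block the median was -0.06 and 0 genes were called. Of 6 same-numbered pairs, female 1 and female 2 correlated at 0.44 and 0.36 and were best matched by their own number. The other pairs lay at -0.38 to 0.05 and were not. Since 5 of the 12 libraries went against a label, this check cannot tell whether the numbers pair the libraries, and no pairing was assumed. For Ch25h, Ccl3, Ccl4 and, outside PBS male 3, Cst7 and Clec7a, low read counts limit what could be seen.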
